A study of Homo sapiens with 6 samples.

Results

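The genes described here build ribosomes in the nucleolus, together with RNA polymerase I, which transcribes the ribosomal RNA precursor. They are a list of 55 genes set by name, and all 55 had 1 row in the deposited table of 30676 genes. By step they are 11 genes of polymerase I and its initiation factors, 7 of the small nucleolar ribonucleoproteins (snoRNPs), 17 of small-subunit processing and 16 of large-subunit processing. The other 4, NCL, NPM1, DDX21 and LYAR, act in several steps and are called general nucleolar genes.

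The 6 libraries came from cells labelled HCT116, an established human colorectal cancer line, given as wild type in the labels. All 6 were held for 24 hours at 1% oxygen, and there was no group at normal oxygen. The GIA libraries, 3 in number, had 10 µM GIA for that time, and the 3 DMSO libraries had 0.1% of the vehicle DMSO. The labels give no DMSO share for the GIA cells. They also do not tie the libraries to separate cultures, so the p-values rest on a spread that may be technical only.

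In the nucleolus, polymerase I is recruited to the ribosomal DNA by UBTF and by the selectivity factor SL1, made of TBP and TAF1 proteins. The long precursor RNA is modified by snoRNPs of the box C/D class, which methylate it, and of the box H/ACA class, which turn uridine into pseudouridine. It is then cut and folded by the small-subunit processome and by a separate set of large-subunit assembly factors. In growing cells the genes of this pathway are known targets of MYC, which binds the E-box.

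Estimated counts summed to between 55725249 and 63542466 in the DMSO libraries and between 64804849 and 67835059 in the GIA libraries, which were thus all deeper. GIA library 2 stood farthest from the rest: its median absolute log2 difference from the mean of the other 5 libraries was 0.110 over the 13721 genes tested, against 0.058 to 0.073 for the others. The label was checked against marker genes. Keratins KRT8, KRT18 and KRT19 had means of 146, 256 and 27.7 FPKM, a level per gene length and library size. EPCAM and CDH1, which define epithelial cells and are known to be high in HCT116, were near 0, at 0.252 and 0.036 FPKM. Among 7 fibroblast markers, LUM had 173 FPKM, DCN 12.8 and PDGFRB 4.22, COL3A1 was near 0 and 2 had no row. The 5 fibroblast markers with a row summed to 178 to 195 FPKM with DMSO and 175 to 222 with GIA, and the 8 epithelial markers to 451 to 456 and 400 to 468. In GIA library 2 LUM was at its highest of the 6 libraries, 197 FPKM, and KRT18 at its lowest, 219. The fibroblast markers DCN, PDGFRB and COL1A1 were also highest in that library, at 16.0, 5.38 and 3.17 FPKM. Their ranges in the other libraries were 11.2 to 13.1, 3.77 to 4.20 and 2.23 to 2.60. COL3A1 had 0.0077 FPKM in GIA library 2 and 0 elsewhere. The DMSO libraries had 161 to 176 FPKM of LUM and 259 to 267 of KRT18. Epithelial markers were mixed in GIA library 2. KRT8 was also lowest there, at 134 FPKM, but ELF3 was highest there, at 17.3. KRT19, at 27.7 FPKM, and CLDN4, at 0.911, lay within the DMSO range, and CLDN3, at 0.447, lay above the DMSO libraries. The part of these markers in the results was not tested. Of the leukocyte markers only CD68, which other cells also express, was above 0.5 FPKM, and no endothelial marker was.

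The E-box hexamer CACGTG, a palindrome and so the same on both strands, was looked for in RefSeq promoters (GRCh38.p14), which run from 250 bases before the start site to 50 after it. A promoter was found for 48 members and not for POLR1E, NOP58, NOLC1, RRP12, RRS1, BOP1 and DDX18. For 45 of the 48, the bases after the start site lie in an annotated transcript of the gene. It held the hexamer in 16 of 48 members (33.3%), in 10.6% of 9448 promoters of tested genes and in 7.26% of all 35116 promoters. By step it was in 9 of 16 small-subunit promoters, 5 of 13 large-subunit promoters, 2 of 5 snoRNP promoters, 0 of 10 polymerase I promoters and 0 of 4 general nucleolar promoters. Among 111 further genes of these steps, chosen for what they do but with earlier results of these data known, 28 of 96 promoters (29.2%) held it. The windows below show it for the members with a promoter match whose values are given in full, with the hexamer in capitals and 12 bases on each side, 5′ to 3′ on the strand of the gene. In UTP4, RRP9 and NOP10 the hexamer began 16, 5 and 11 bases before the start site, in FBL, GNL2, MRTO4 and LTV1 6, 3, 14 and 28 bases after it, and in EBNA1BP2 237 bases before it. NOP10 had another, 170 bases before its start site.
RRP9 (chr3:51941892-51941921, minus): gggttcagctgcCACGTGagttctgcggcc
UTP4 (chr16:69132621-69132650, plus): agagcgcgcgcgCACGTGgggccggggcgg
LTV1 (chr6:143843354-143843383, plus): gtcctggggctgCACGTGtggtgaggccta
FBL (chr19:39846356-39846385, minus): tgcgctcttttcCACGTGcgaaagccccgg
NOP10 (chr15:34343130-34343159, minus): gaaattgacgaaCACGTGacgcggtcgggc
GNL2 (chr1:37595917-37595946, minus): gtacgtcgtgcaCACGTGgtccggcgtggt
MRTO4 (chr1:19251807-19251836, plus): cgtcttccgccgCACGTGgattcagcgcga
EBNA1BP2 (chr1:43172790-43172819, minus): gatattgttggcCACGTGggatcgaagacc
Each of these windows overlaps an annotated exon. The start sites are those of RefSeq and can differ from the start of the deposited gene model. That model starts at 43261910 for EBNA1BP2, on the minus strand, and at 69131291 for UTP4, on the plus strand. A match of letters is not a bound site. The median log2 fold change, GIA over DMSO, was -0.070 over the 16 members with the hexamer and -0.062 over the 32 without.

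**Figure D1:**
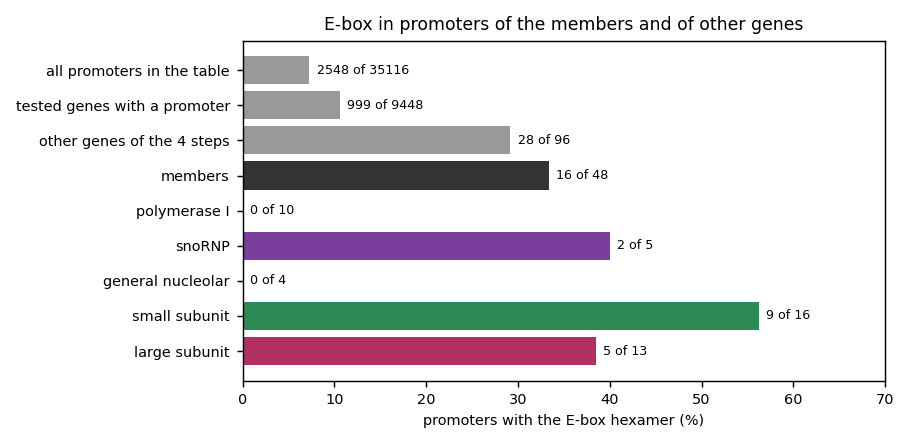
Percent of RefSeq promoters (x axis) that hold the E-box hexamer, for all promoters, tested genes, further genes of the steps, the members and each step (y axis), with counts beside the bars. Small-subunit members had it in 9 of 16 promoters and polymerase I members in 0 of 10.

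All 55 members were expressed above the minimum of 0.5 FPKM set for testing. Mean FPKM over the 6 libraries ran from 3.37 for POLR1D to 388 for NPM1, and 49 members lay above the median of the tested genes. The median level was 8.54 FPKM for polymerase I genes, 18.7 for small-subunit genes, 26.5 for large-subunit genes, 68.1 for snoRNP genes and 99.0 for the general nucleolar genes. Levels varied little between libraries: the coefficient of variation over 6 libraries had a median of 5.39% over members and 6.42% over all tested genes, from 1.85% for UBTF to 12.4% for PPAN.

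**Figure D2:**
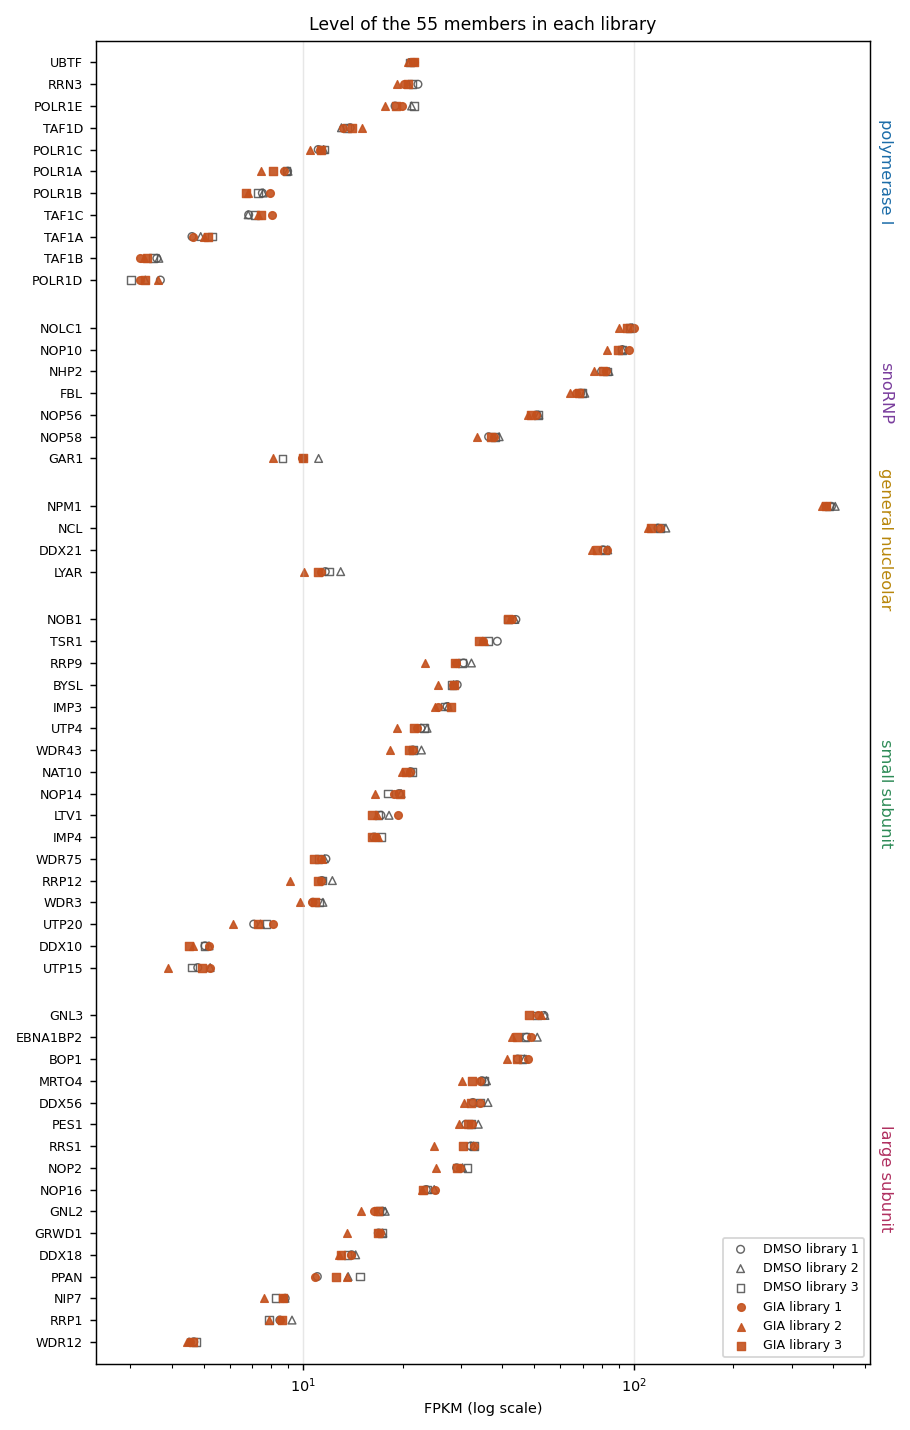
FPKM (x axis, log scale) of each of the 55 members (rows, by step and level) in each library; open grey symbols are DMSO, filled orange symbols GIA, and the shape gives the library number. Members differ from each other far more than libraries do, and the filled triangles of GIA library 2 often lie at the left end.

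Between GIA and DMSO no member passed the test, and nearly all lay slightly lower with GIA. Of 55 members, 0 passed an adjusted p under 0.05 by edgeR's quasi-likelihood test, with 0.00% of 13721 genes called, and DESeq2 called 0 members too. At an unadjusted p under 0.05 edgeR had 6 members lower and 1 higher, where 1.95% and 2.65% of all tested genes were, and DESeq2 had 9 and 1, with 1.90% and 2.84% of all tested genes. The fold change was below 0 for 51 of 55 members, against 49.8% of all tested genes, and for 50 with library totals in place of TMM scaling, where LTV1 turned to 0.0013. The median log2 fold change of the members was -0.066, and that of all tested genes 0.0004. The 95% intervals of all 55 lay within 1.5-fold either way, as did those of 83.0% of all tested genes. Like the p-values, these intervals rest on a spread between libraries that may be technical only. The bound farthest from no change was 1.31-fold, for RRP9, and the widest interval was that of GAR1.

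**Figure D3:**
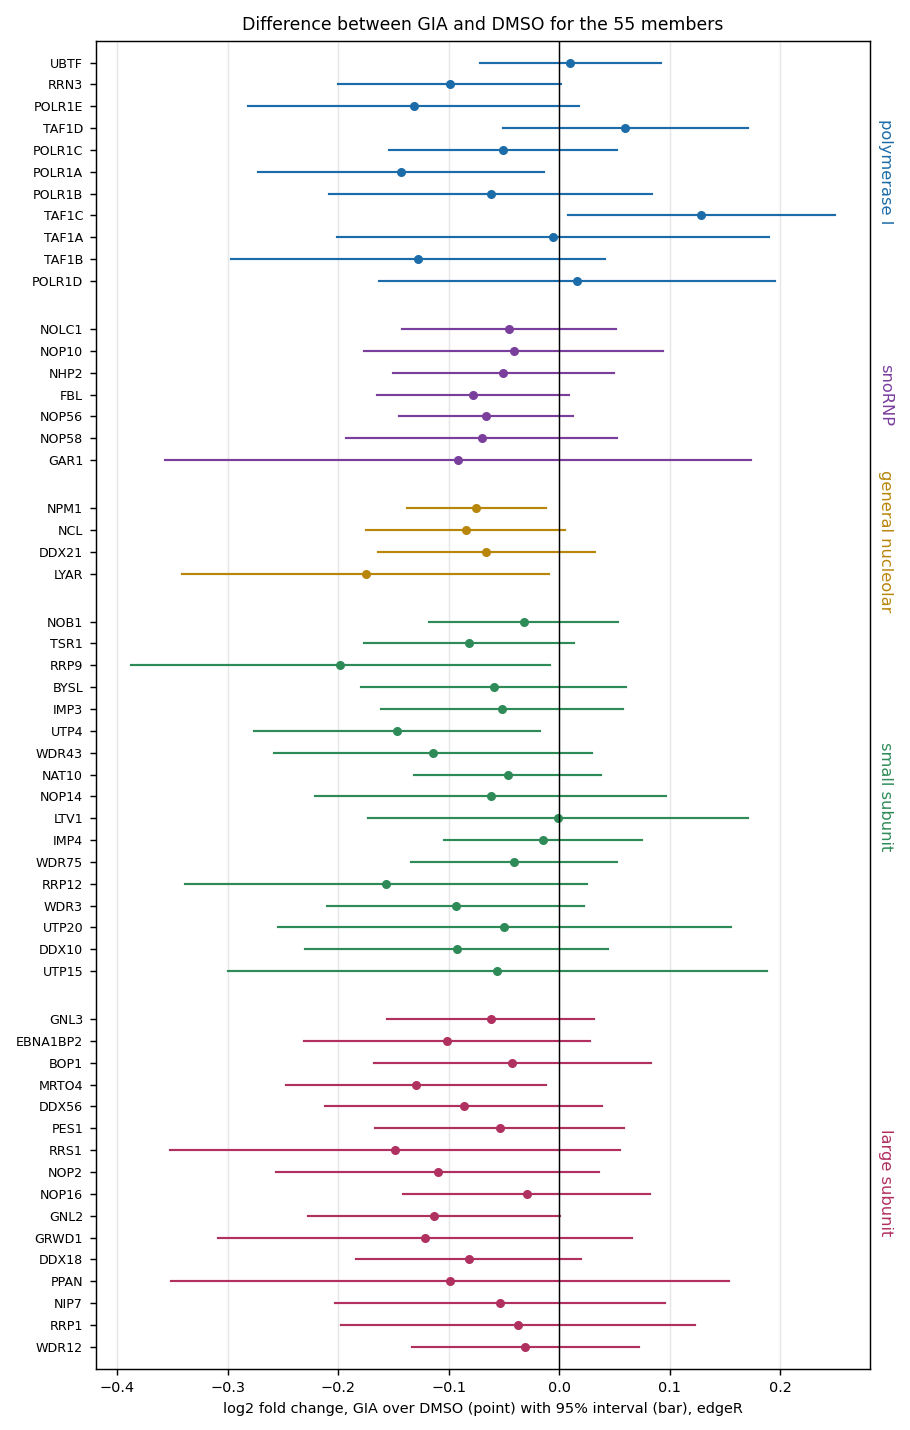
Log2 fold change of each member, GIA over DMSO, from edgeR (points) with its 95% interval (bars), by step and level. Most points lie left of 0, between -0.20 and 0.13, and 6 bars lie wholly below 0 and 1 wholly above it.

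The snoRNP genes included some of the most abundant members. NOLC1, a nucleolar chaperone of snoRNPs, had the highest level of the step, with 98.0, 99.0 and 97.5 FPKM in DMSO libraries 1 to 3 and 100.2, 89.99 and 95.5 in GIA libraries 1 to 3. NOP10, a small protein of the H/ACA class, had 92.3, 92.4 and 91.9 FPKM with DMSO and 96.6, 83.1 and 89.4 with GIA. In both genes the DMSO libraries lay within 2 FPKM of each other and the GIA libraries spread to both sides of them. The log2 fold change was -0.05 (SE 0.04) for NOLC1 and -0.04 (SE 0.06) for NOP10. Without GIA library 2 the values were -0.0026 for NOLC1 and 0.015 for NOP10.

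The mRNAs of the H/ACA proteins did not have equal FPKM, a measure that depends on the model of each gene. NHP2 had 79.9, 84.1 and 82.8 FPKM with DMSO and 82.3, 75.9 and 80.4 with GIA, a log2 fold change of -0.05 (SE 0.04), and -0.014 without GIA library 2. DKC1, the pseudouridine synthase of the same particle and no member, had a mean of 43.7 FPKM, and GAR1 9.63. GAR1 lay far below its partners in every library, between 8.08 and 11.1 FPKM, and its interval was the widest of the step, from -0.36 to 0.17 on the log2 scale.

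In the box C/D class, the methyltransferase fibrillarin and the scaffold NOP56 had groups that did not overlap. FBL had 69.1, 71.1 and 69.6 FPKM with DMSO and 66.8, 64.1 and 68.1 with GIA, with -0.08 on the log2 scale (SE 0.04, 95% bounds -0.16 and 0.0093). NOP56 had 50.9, 51.6 and 51.3 FPKM with DMSO and 50.7, 47.7 and 48.8 with GIA, a log2 fold change of -0.07 (SE 0.03). GIA library 1 lay within 1 FPKM of the DMSO libraries for NOP56. FBL had -0.05 and NOP56 -0.04 without GIA library 2. NOP58, the partner of NOP56, had 36.4, 39.1 and 38.1 FPKM with DMSO and 37.9, 33.6 and 36.9 with GIA. Its groups overlapped, and the log2 fold change was -0.07 (SE 0.05), with -0.016 without GIA library 2. SNU13, which binds the RNA of these particles and is no member, had a mean of 46.3 FPKM. All 7 snoRNP genes had a negative fold change and all 7 were lowest in GIA library 2.

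The general nucleolar genes held the smallest p of all members. NPM1, a nucleolar chaperone (chromosome 5, 171387116 to 171411137), had 396.1, 406.6 and 389.5 FPKM with DMSO and 381.1, 371.3 and 380.9 with GIA. Each GIA library lay below each DMSO library, with -0.07 on the log2 scale (SE 0.03, 95% bounds -0.14 and -0.012), with a p of 0.0252 and an adjusted p of 0.875 by edgeR. The table also holds 17 NPM1 pseudogene models, which summed to a mean of 40.0 FPKM, so that part of the reads of this gene may be shared with near-identical copies. LYAR, a nucleolar zinc-finger protein of rRNA processing (chromosome 4, 4267701 to 4290154), had 11.7, 12.98 and 11.99 FPKM with DMSO and 11.3, 10.1 and 11.1 with GIA. Its groups did not overlap either, and its log2 fold change was -0.18 (SE 0.07, 95% bounds -0.34 and -0.0088, adjusted p = 0.875 by edgeR).

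Nucleolin and the helicase DDX21 showed values of the same kind, with groups that overlapped. NCL, which binds the precursor RNA, had 118.3, 125.0 and 120.2 FPKM with DMSO and 120.2, 110.4 and 112.7 with GIA, a log2 fold change of -0.08 (SE 0.04). DDX21, which acts in polymerase I transcription and in rRNA processing, had 80.7, 83.4 and 81.9 FPKM with DMSO and 83.1, 74.6 and 77.6 with GIA, a log2 fold change of -0.07 (SE 0.04). NCL had -0.06 and DDX21 -0.03 without GIA library 2. In all 4 genes DMSO library 2 was highest and GIA library 2 lowest.

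The polymerase I genes were split in direction, with 7 lower and 4 higher by sign. POLR1A, the largest subunit (chromosome 2, 86020216 to 86106155), had 8.97, 8.997 and 8.90 FPKM with DMSO and 8.76, 7.48 and 8.11 with GIA. The groups did not overlap, and the 3 DMSO libraries were much closer together than the GIA libraries. The log2 fold change was -0.14 (SE 0.06, 95% bounds -0.27 and -0.014, adjusted p = 0.875 by edgeR), with -0.08 without GIA library 2. The second largest subunit, POLR1B, had a mean of 7.30 FPKM and a log2 fold change of -0.06 (SE 0.06). POLR1E, a subunit of the enzyme's initiation and elongation module, had 19.0, 21.3 and 21.7 FPKM with DMSO and 19.9, 17.6 and 19.1 with GIA, with groups that overlapped. Its log2 fold change was -0.13 (SE 0.07), with -0.08 without GIA library 2. POLR1C and POLR1D, which polymerase III also uses, had -0.05 (SE 0.05) and 0.016 (SE 0.08), and POLR1D was the member of lowest level. The table gives POLR1F, POLR1G and POLR1H, further subunits, under the older names TWISTNB, CD3EAP and ZNRD1, with -0.09 (SE 0.05), -0.11 (SE 0.12) and 0.0094 (SE 0.06).

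Initiation factors of polymerase I held the 1 member that lay higher at an unadjusted p under 0.05. TAF1C, a subunit of SL1 (chromosome 16, 84177847 to 84187070), had 6.84, 6.82 and 7.13 FPKM with DMSO and 8.04, 7.29 and 7.45 with GIA. Each GIA library lay above each DMSO library, with GIA library 1 highest, and the log2 fold change was 0.13 (SE 0.05, 95% bounds 0.0078 and 0.25, adjusted p = 0.875 by edgeR), with 0.08 without GIA library 1. Its partners in SL1 had other values. TAF1A had 4.61, 4.90 and 5.29 FPKM with DMSO and 4.63, 5.00 and 5.15 with GIA, a log2 fold change of -0.0053 (SE 0.09). TAF1B had -0.13 (SE 0.07) with groups that did not overlap, and TAF1D 0.06 (SE 0.05). Differences between these genes were not tested.

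UBTF, which binds and opens the ribosomal DNA, had 21.6, 21.0 and 21.0 FPKM with DMSO and 21.7, 20.8 and 21.6 with GIA. The GIA range enclosed the DMSO range, and the log2 fold change was 0.010 (SE 0.04, 95% bounds -0.07 and 0.09). RRN3, which joins polymerase I to the promoter complex, had 22.2, 20.8 and 21.4 FPKM with DMSO and 20.2, 19.3 and 20.8 with GIA. GIA library 3 and DMSO library 2 had nearly the same value, and the log2 fold change was -0.10 (SE 0.04).

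Of the small-subunit genes, all 17 had a fold change below 0, with a median of -0.06 on the log2 scale. RRP9, a protein of the snoRNP that guides the first cuts (chromosome 3, 51933429 to 51941904), had 30.5, 32.3 and 30.2 FPKM with DMSO and 28.95, 23.3 and 28.9 with GIA. The groups did not overlap, but GIA library 2 lay apart from the other GIA libraries. The log2 fold change was -0.20 (SE 0.08, 95% bounds -0.39 and -0.0081, adjusted p = 0.875 by edgeR), the lowest of the members, and it was -0.10 without that library. UTP4, of the subcomplex that first binds the precursor (chromosome 16, 69131291 to 69231130), had 22.7, 23.7 and 23.2 FPKM with DMSO and 22.1, 19.2 and 21.6 with GIA. Its log2 fold change was -0.15 (SE 0.06, 95% bounds -0.28 and -0.018, adjusted p = 0.875 by edgeR), and -0.08 without GIA library 2. RRP12, which acts in export and maturation of the particles, had 11.4, 12.3 and 11.4 FPKM with DMSO and 11.3, 9.09 and 11.1 with GIA. Its groups were apart by under 0.1 FPKM, its log2 fold change was -0.16 (SE 0.08), and without GIA library 2 it had -0.06.

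For NOB1, TSR1 and LTV1, GIA library 3 and not GIA library 2 was the lowest of the 6. NOB1, the endonuclease that makes the mature end of the small-subunit rRNA, had the highest level of the step, with 44.0, 43.7 and 41.7 FPKM with DMSO and 42.8, 42.3 and 41.5 with GIA. Its log2 fold change was -0.03 (SE 0.04). TSR1, a late factor of the pre-ribosomal particle, had 38.6, 34.9 and 36.3 FPKM with DMSO and 34.9, 35.1 and 33.9 with GIA, with -0.08 (SE 0.04), and DMSO library 1 stood above the rest. LTV1, another late factor, had 17.2, 18.2 and 16.9 FPKM with DMSO and 19.3, 16.7 and 16.2 with GIA, and its log2 fold change of -0.0011 (SE 0.08) was the nearest to 0 of all members. The other 11 small-subunit genes had group means from 4.70 to 28.6 FPKM and log2 fold changes from -0.11 (WDR43) to -0.015 (IMP4).

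Of the large-subunit genes, all 16 had a fold change below 0, with a median of -0.08 on the log2 scale. MRTO4, a relative of the ribosomal stalk protein that holds its place during assembly (chromosome 1, 19251805 to 19260128), had 34.7, 35.8 and 35.2 FPKM with DMSO and 34.3, 30.1 and 32.4 with GIA. The groups did not overlap, and the log2 fold change was -0.13 (SE 0.05, 95% bounds -0.25 and -0.012, adjusted p = 0.875 by edgeR), with -0.08 without GIA library 2. GNL2, a GTPase of particle maturation (chromosome 1, 37566816 to 37595937), had 17.4, 17.7 and 17.0 FPKM with DMSO and 16.4, 15.0 and 16.8 with GIA. It too had groups that did not overlap, with -0.11 (SE 0.05, upper 95% bound 0.0007), and -0.06 without GIA library 2.

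Other large-subunit genes had groups that overlapped. GNL3, the nucleostemin GTPase, was the most abundant of the step, with 53.5, 53.8 and 51.0 FPKM with DMSO and 51.4, 52.3 and 48.2 with GIA, a log2 fold change of -0.06 (SE 0.04). EBNA1BP2, a nucleolar assembly factor, had 47.4, 51.0 and 47.0 FPKM with DMSO and 48.8, 42.8 and 44.2 with GIA, with -0.10 (SE 0.06). The helicase DDX18 had 14.0, 14.4 and 13.6 FPKM with DMSO and 13.9, 12.9 and 13.0 with GIA, with -0.08 (SE 0.045). NOP16, the nearest to 0 in this step, had 23.6, 24.9 and 23.7 FPKM with DMSO and 25.02, 22.8 and 23.0 with GIA, with -0.03 (SE 0.05). EBNA1BP2 had -0.06 and NOP16 -0.0013 without GIA library 2. EBNA1BP2, DDX18 and NOP16 were each lowest in GIA library 2, and GNL3 in GIA library 3.

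PES1, BOP1 and WDR12 form 1 complex, which large-subunit rRNA processing needs, but their levels were far apart. PES1 had a mean of 31.8 FPKM, BOP1 45.1 and WDR12 4.59, and no library brought WDR12 near its partners. FPKM depends on the gene model, and the annotation was not stated, so levels of different genes compare only roughly. The log2 fold changes of PES1, BOP1 and WDR12 were -0.05 (SE 0.05), -0.04 (SE 0.06) and -0.03 (SE 0.05). RRS1 and GRWD1 had larger values, -0.15 (SE 0.09) and -0.12 (SE 0.08), and both came close to 0 without GIA library 2, at -0.04 and -0.016. The other 4 large-subunit genes, NOP2, DDX56, NIP7 and RRP1, had means of 29.2, 33.4, 8.47 and 8.44 FPKM. Their log2 fold changes were -0.11 (SE 0.06), -0.09 (SE 0.06), -0.05 (SE 0.07) and -0.04 (SE 0.07), and all 4 were lowest in GIA library 2. PPAN was the most variable member, between 10.9 and 14.9 FPKM. It shares its sequence with the readthrough model PPAN-P2RY11, which ran from 1.45 to 8.88 FPKM and was highest in GIA library 1, where PPAN was lowest, which leaves the split of reads between these models uncertain.

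GIA library 2 was low for most members. It was the lowest of the 6 libraries for 41 of 55 members, against 23.9% of all tested genes, and DMSO library 2 was the highest for 26, against 16.0%. GIA library 2 lay below all 3 DMSO libraries for 45 members (30.1% of tested genes), GIA library 3 for 31 (26.0%) and GIA library 1 for 16 (26.0%). The mean of log2 (FPKM + 0.5) over the members, relative to the 6-library mean, was 0.018, 0.061 and 0.022 in DMSO libraries 1 to 3 and 0.020, -0.10 and -0.016 in GIA libraries 1 to 3. GIA library 1 therefore lay among the DMSO libraries and GIA library 3 just below them. In GIA library 2 the mean was between -0.11 and -0.13 for snoRNP, general nucleolar, small-subunit and large-subunit genes, and -0.04 for polymerase I genes. The 55 members made up 0.735%, 0.763% and 0.746% of summed FPKM with DMSO and 0.737%, 0.686% and 0.711% with GIA.

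**Figure D4:**
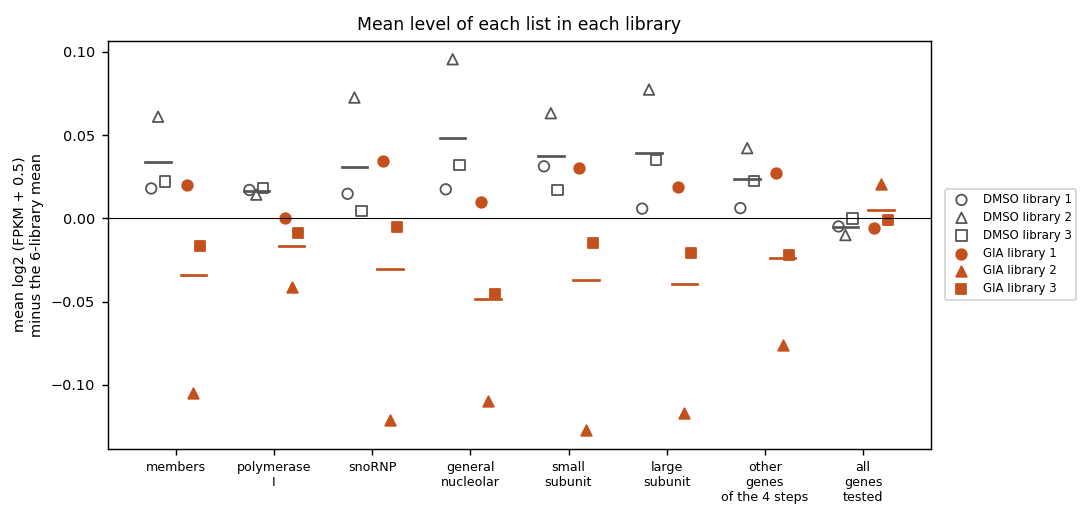
Mean of log2 (FPKM + 0.5) over each list, minus the 6-library mean (y axis), for the members, each step, further genes of the steps and all tested genes (x axis); points are libraries and short lines group means. GIA library 2 is at -0.10 for the members and GIA library 1, at 0.020, lies among the DMSO libraries.

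Without GIA library 2 the difference was smaller. The median log2 fold change of the members was then -0.03, 43 of 55 were below 0 (50.0% of all tested genes), and 2 were lower at an unadjusted p under 0.05 (2.14%). Without GIA library 1 the median was -0.10, with 51 below 0 (49.8%) and 20 lower at an unadjusted p under 0.05 (4.91%), and 0 members passed in either case by edgeR. Without any other single library the median lay between -0.08 and -0.05. The 3 GIA libraries spread more than the DMSO libraries for 43 of 55 members, on the log2 scale, against 59.9% of all tested genes. Groups did not overlap for 11 members with GIA lower (5.60% of tested genes) and for TAF1C with GIA higher (5.63%).

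**Figure D5:**
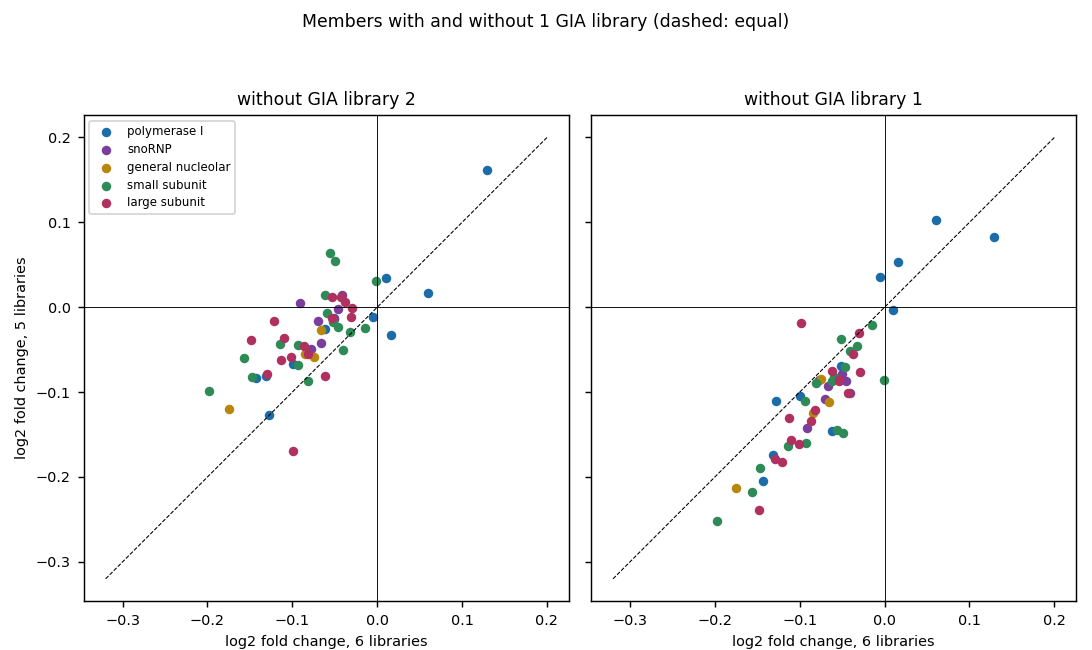
Log2 fold change of each member, GIA over DMSO, from 6 libraries (x axis) against that from 5 libraries (y axis), without GIA library 2 (left) or GIA library 1 (right); colours are steps and the dashed line marks equal values. Without GIA library 2 most points lie above the line, and without GIA library 1 most lie below it.

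Further genes of these steps also had mostly small negative values. Of 111 genes, 0 passed the test by edgeR, and 91 had a fold change below 0 and 20 above, where 49.8% of all tested genes were below 0. The median was -0.06, with -0.03 without GIA library 2. Log2 fold changes ran from -0.27 to 0.42, a large-subunit gene, and the interval bound farthest from no change was 2.015-fold. At an unadjusted p under 0.05 edgeR had 8 lower and 0 higher, where 1.95% and 2.65% of all tested genes were. By list, 8 of 11 further polymerase I genes, 9 of 10 snoRNP and assembly genes, 34 of 43 small-subunit genes and 40 of 47 large-subunit genes were below 0. EIF6, which keeps the subunits apart, had the smallest p among them, with 80.2, 78.5 and 79.8 FPKM with DMSO and 75.2, 69.2 and 72.5 with GIA. All GIA libraries lay below all DMSO libraries, and the log2 fold change was -0.14 (SE 0.04, adjusted p = 0.875 by edgeR). DDX52, a small-subunit helicase, had -0.13 (SE 0.04), and ZNHIT6, which assembles box C/D snoRNPs, -0.10 (SE 0.05). ZNHIT6 had -0.06 and POLR1F -0.05 without GIA library 2.

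Neighbouring pathways were mixed. Of 14 genes of the RNA exosome, which trims rRNA ends, 13 were below 0 with a median of -0.06, and EXOSC7 had -0.10 (SE 0.06). For polymerase III, which makes the smallest ribosomal RNA, 15 of 21 genes were below 0 with a median of -0.05. POLR3K, a small subunit of that enzyme, had 13.8, 14.8 and 13.4 FPKM with DMSO and 12.7, 11.9 and 12.2 with GIA, without overlap, and -0.19 (SE 0.07). Groups without overlap and with GIA lower were found for 5.60% of all tested genes. Of 18 tested p53 targets, which nucleolar stress is known to induce, 10 were below 0 with a median of -0.05, and AEN had -0.18 (SE 0.08). Without GIA library 2 the medians were -0.04 for the exosome, -0.013 for polymerase III and -0.018 for the p53 targets, and AEN had -0.08. In that fit 10 exosome genes, 13 polymerase III genes and 11 p53 targets were below 0, with 50.0% of all tested genes. No gene of these lists passed the test by edgeR, and 0 exosome genes, 1 polymerase III gene and 0 p53 targets were at an unadjusted p under 0.05. Of all tested genes, 1.95% were lower and 2.65% higher at that level by edgeR, and 49.8% had a fold change below 0 with all 6 libraries.

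SnoRNA genes sit in introns of several members. In 8 members at least 1 snoRNA model lay within the gene on its strand, against 1.13% of all tested genes: TAF1D with 8 models, NOP56 with 5, NOP58 and GNL3 with 4 each, NCL and WDR43 with 3 each, and TSR1 and PPAN with 2 each. The median log2 fold change was -0.08 over these 8 and -0.06 over the other 47. The 16 separate snoRNA host genes, noncoding RNAs whose introns carry snoRNAs, had 7 below 0 and 9 above, with a median of 0.018. That median was -0.0005 without GIA library 2, with 8 of 16 below 0. At an unadjusted p under 0.05 edgeR had 2 of them higher and 0 lower, where 2.65% and 1.95% of all tested genes were, and 0 passed the test. SNHG3 had 10.9, 12.04 and 12.3 FPKM with DMSO and 12.2, 15.6 and 13.4 with GIA, a log2 fold change of 0.22 (SE 0.08, adjusted p = 0.875 by edgeR), and 0.13 without GIA library 2. It was highest in GIA library 2, where the members were mostly lowest, and GIA library 1 lay within the DMSO range. Of the members, 18 overlap another gene model of at least 0.5 FPKM, 15 of them on the opposite strand, and the counting is not stated to use strand. Among them UTP4 overlaps CHTF8 at 30.8 FPKM, NOP16 overlaps HIGD2A at 93.0 and POLR1C overlaps YIPF3 at 29.9, so that reads of these pairs may not be fully told apart.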

How the data were processed

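The authors deposited 1 table with an estimated count and an FPKM value for each gene and library, per the file headers. HISAT2 2.2.1, FastQC 0.10.1, DESeq2 1.22.2, cutadapt and StringTie 2.1.6 were named without roles, on GRCh38, per the submitters' processing notes. Which annotation was used, and whether counting used strand, were not stated there. Low counts pile up at multiples of 4 (6798 values at 4, against 4183 at 3 and 2499 at 5), so the deposited counts were treated as estimated counts from coverage. They are whole, so rounding changed nothing.

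The 13721 genes whose FPKM averaged 0.5 or more were tested with edgeR 4.0.16 (quasi-likelihood, TMM, R 4.3.3), two-sided, with Benjamini-Hochberg adjustment over all of them and a threshold of 0.05. All 55 members passed this filter. Fold changes are log2, GIA over DMSO. Standard errors were the fold change over the root of F. On simulated counts for these 13721 genes the test recovered 36%, 60%, 82% and 98% of 50 genes changed 1.25-, 1.5-, 2- and 4-fold, with 10 false calls of 148. On simulated data only the edgeR step was tested. The simulated counts were drawn for each gene on its own, so no library stood apart over many genes as GIA library 2 did. The recovered shares may therefore not hold for the real libraries. Values in every library are given for the 4 members of smallest p, the 2 of highest FPKM and the 1 nearest to 0 in each step, and fold changes for the gene of smallest p at 5 FPKM or more in each other list. Any other gene in the text was picked with its values in view. The members and lists were chosen with earlier results of these data known. Of the list genes, 3 were matched by gene ID and 5 had no row. Alternatives used DESeq2 1.42.0, limma 3.58.1 and other scalings and filters.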

Additional observations from a re-analysis of the deposited data

How the results depend on the processing

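Each of 15 alternatives left 0 members past the threshold: DESeq2, limma on log2 FPKM with 3 pseudocounts, library totals, no filter, a filter at 5 FPKM, counts divided by 4, a replicate block and 6 fits without 1 library. The smallest adjusted p of a fully described member under any of them was 0.469, without GIA library 1. The median log2 fold change of the members ran from -0.10 (without GIA library 1) to -0.03 (without GIA library 2), with 43 to 51 members below 0. Over all genes the number called was 0 to 5 when 1 library was left out. With the replicate block it was 3, against 0 without the block, and 0 members were called in either. The replicate numbers were not taken to pair the libraries, since the labels do not say that a number marks a shared culture or day. The deviations of same-numbered libraries correlated at 0.052, 0.033 and 0.097. Each GIA library correlated best with the DMSO library of its own number. DMSO library 2 had nearly equal values, 0.035 with GIA library 1 and 0.033 with GIA library 2. These low correlations do not settle whether the numbers mark pairs. Of 28 members described in full, 4 changed sign in some setting. LTV1 had 0.0013 with library totals, 0.0076 with the filter at 5 FPKM and 0.0005 with counts divided by 4. When 1 library was left out, LTV1 ran from -0.0856 to 0.0458, UBTF from -0.0034 to 0.0339, TAF1A from -0.0526 to 0.0478 and NOP10 from -0.1009 to 0.0149. Without GIA library 2, 20 of the 28 moved by over 1.5 times or changed sign, against 11 without GIA library 1 and 4 to 7 in the remaining 4 such fits. The cause was not tested. The filter at 5 FPKM leaves 49 members. Whether depth or the number of libraries limits the precision more was not tested.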
